A study of Mus musculus with 12 samples.

Results

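Cd3d, Cd3e, Cd3g, Cd247, Lck, Fyn, Zap70, Lat and Lcp2 are genes of the first steps of T cell receptor signaling. They were followed in 12 RNA-seq libraries labelled as mouse spleen CD8 T cells. The genes were chosen by their place in the pathway, with earlier results of these data known. These 9 genes are among 35907 genes for which the deposited files hold a transcript. All 9 had at least 94 estimated counts in every library, and all 9 passed the filter on low counts in each comparison. The libraries fall into 4 groups of 3, which are WT and TCF-1 cKO cells sorted from donor mice before transplant, and WT and TCF-1 cKO donor cells sorted back from recipient spleens on day 7 after transplant. All donors were of C57BL/6 background, and the study's methods describe female, age-matched donors. TCF-1 cKO mice carry floxed alleles of Tcf7, the gene of the transcription factor TCF-1, and a Cre driven by the Cd4 promoter, which also acts in developing CD8 T cells because these pass through a stage that expresses Cd4. The post-transplant cells had spent 7 days in lethally irradiated BALB/c mice, which received donor T cells and, by the study's methods, WT bone marrow, so that pre- and post-transplant libraries differ by host, by activation against the host and by time together. The pre-transplant cells were described as coming from 3 different mice per genotype. Pooling of recipients is not given in the sources used here, so p-values measure the spread between these libraries.

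A T cell reads antigen through a receptor whose antigen-binding chains have no signaling tail of their own. The tails are supplied by CD3 delta, CD3 epsilon, CD3 gamma and the zeta chain, encoded by Cd3d, Cd3e, Cd3g and Cd247, and these carry tyrosine motifs. The Src family kinases LCK and FYN phosphorylate those motifs, the kinase ZAP-70 docks on them, and ZAP-70 phosphorylates the adaptors LAT and SLP-76 (Lcp2), on which the next enzymes of the pathway assemble. In CD8 T cells, LCK is carried to the receptor by the coreceptor CD8.

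The 9 transcripts differ in base composition, which the later comparisons turn on. GC content, the percentage of G and C bases weighted by the counts of each gene's transcripts, was 47.1% for Cd3g, 48.4% for Lcp2, 49.7% for Fyn, 50.03% for Cd3d, 50.1% for Cd3e, 52.6% for Cd247, 54.8% for Lck, 58.0% for Lat and 59.4% for Zap70. The first 120 coding bases of the leading transcripts of Cd3g and Zap70, the genes at either end of this range, are shown with G and C in capitals, from GENCODE M21 (GRCm38), with 62 and 79 such bases, respectively.
Cd3g-201: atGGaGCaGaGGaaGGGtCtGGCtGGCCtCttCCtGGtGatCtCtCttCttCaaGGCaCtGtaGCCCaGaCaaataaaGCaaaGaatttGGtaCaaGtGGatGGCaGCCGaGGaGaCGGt
Zap70-201: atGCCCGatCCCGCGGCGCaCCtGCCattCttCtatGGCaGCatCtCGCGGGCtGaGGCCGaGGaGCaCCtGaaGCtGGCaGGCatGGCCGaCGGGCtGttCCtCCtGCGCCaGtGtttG
Over the whole coding sequence the GC content was 47.6% for Cd3g-201 and 60.0% for Zap70-201. Cd3d-201 and Cd3e-201 were close in this measure too, with 51.3% and 52.0% in the coding sequence and 49.6% and 49.0% in the bases after it. In windows of 200 bases the highest GC content was 59.0% in Cd3d-201, 60.5% in Cd3e-201, 69.0% in Lat-201 and 70.0% in Zap70-201.

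By GENCODE M21 positions on GRCm38, Cd3g (ENSMUSG00000002033, minus strand, 44969572 to 44980431), Cd3d (ENSMUSG00000032094, plus strand, 44981786 to 44987339) and Cd3e (ENSMUSG00000032093, minus strand, 44998740 to 45009627) lie side by side on chromosome 9. The start of Cd3d is 1355 bases from that of Cd3g, on the opposite strand, and 27841 bases from that of Cd3e. The other 6 genes lie apart from this cluster. Cd247 (ENSMUSG00000005763) spans 165788681 to 165877277 and Zap70 (ENSMUSG00000026117) spans 36761798 to 36782818, both on the plus strand of chromosome 1. Lck (ENSMUSG00000000409) lies on the minus strand of chromosome 4 from 129548344 to 129573641, and Lat (ENSMUSG00000030742) on the minus strand of chromosome 7 from 126363824 to 126369570. Fyn (ENSMUSG00000019843) lies on the plus strand of chromosome 10 from 39368855 to 39565381, and Lcp2 (ENSMUSG00000002699) on the plus strand of chromosome 11 from 34046920 to 34092295.

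Library totals were 4520270 to 9577076 estimated counts in TCF-1 cKO pre-transplant cells and 18184814 to 32657005 in the other 9 libraries, so a level of 3 counts stands for 0.0921 to 0.666 CPM (counts per 1000000). Levels are given here as normalized CPM, in which totals were adjusted by edgeR's TMM factors over all 12 libraries. Each fit on 6 libraries used factors of its own, so levels and log2 fold changes can differ. Tcf7 was at 117, 76.1 and 166 normalized CPM in WT pre-transplant replicates 1 to 3 and at 26.3, 34.3 and 62.8 in the TCF-1 cKO libraries. Post-transplant it was at 26.9, 26.4 and 10.7 in WT and at 14.6, 13.7 and 14.1 in TCF-1 cKO cells, so the library labelled WT post-transplant replicate 3 had less Tcf7 than any TCF-1 cKO library of that stage. The genotype difference in Tcf7 did not pass at either stage (log2 fold change -1.36, adjusted p = 0.223, and -0.91, adjusted p = 0.308). For the 9 genes, the main fits that use that library are given with and without it, and other tests with it unless stated. TCF-1 cKO post-transplant replicate 2 is titled as CD8 T cells, but its source is labelled CD4 T cells; its Cd8a was at 622 and its Cd4 at 2.04 normalized CPM.

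The sorted CD8 T cell label was checked against marker genes. In the pre-transplant libraries all 8 B cell and plasma cell markers were detected in every library, and summed to 12800 to 19500 normalized CPM in WT and 5360 to 13000 in TCF-1 cKO cells. The 8 pan-T cell markers summed to 1290 to 1550 and 348 to 801. The pan-T list includes Trac, Trbc1 and Trbc2, which serve as a denominator further on, and Cd5, which is also in the list of negative regulators. The 6 erythroid markers summed to 3440 to 11600 and 2120 to 17100 and the 8 myeloid markers to 1140 to 2960 and 785 to 985. In WT pre-transplant cells Cd4 was at 85.7 to 110 normalized CPM and Cd8a at 87.2 to 154. In TCF-1 cKO pre-transplant cells Cd4 was at 22.9 to 48.6 and Cd8a at 26.5 to 30.9. Post-transplant the pan-T cell markers summed to 8910 to 16800 in WT and 10800 to 13300 in TCF-1 cKO cells, B cell and plasma cell markers to 698 to 1120 and 500 to 794, erythroid markers to 317 to 2620 and 350 to 838, and myeloid markers to 176 to 268 and 155 to 568. The 5 NK cell markers summed to 22.2 to 148 and the 4 markers of the CD4 lineage to 5.49 to 173 in all libraries. Bulk libraries cannot tell fewer cells of a type from less RNA per cell. The part of these other cell types in the results was not tested unless a value says so.

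**Figure D1:**
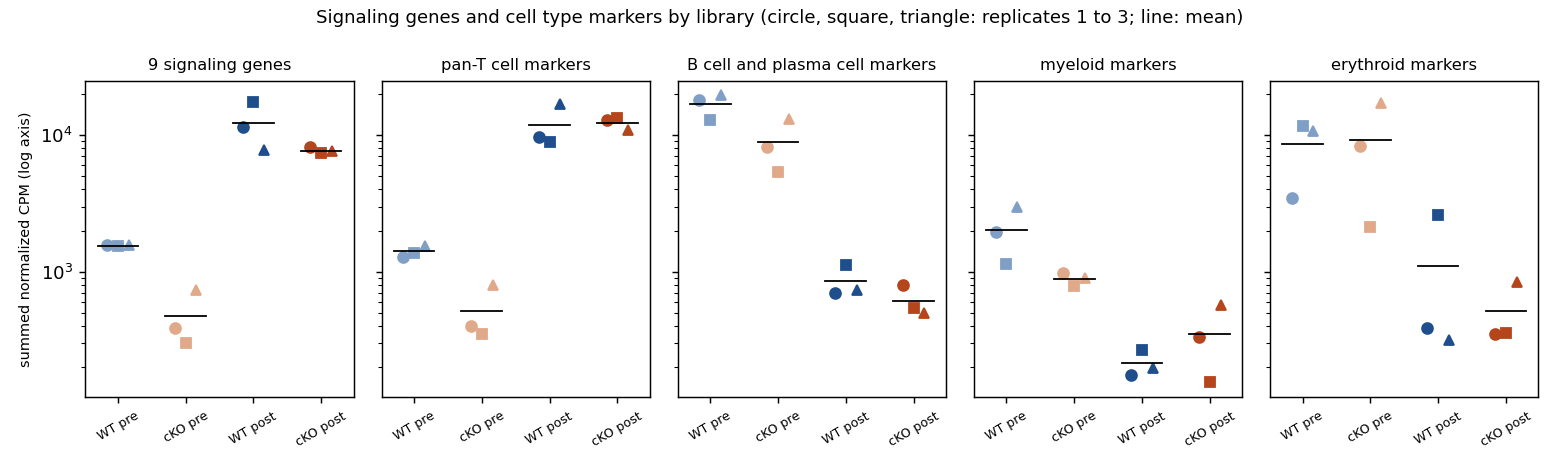
Summed normalized CPM (log axis) of the 9 signaling genes and of the pan-T, B cell and plasma cell, myeloid and erythroid marker lists in each library, with circle, square and triangle for replicates 1 to 3 and a line for the mean of 3. The signaling genes summed to 299 to 1560 before transplant and 7400 to 17500 after it, and the pan-T cell markers were likewise higher after transplant, where the B cell and plasma cell markers were lower.

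Compared per transcript length, as TPM (transcripts per 1000000), Lck led the 9 genes in 3 of the 4 groups. In WT pre-transplant cells Lck was at 515 ± 103 TPM (SD, n = 3), above every value of the next gene. Cd3g (222 ± 23.2), Cd3d (190 ± 26.9), Cd3e (180 ± 26.2), Lat (147 ± 42.3) and Cd247 (122 ± 34.0) followed, with each overlapping its neighbour in this order. Zap70 (59.5 ± 7.97) and Lcp2 (56.7 ± 8.73) overlapped each other, and Fyn was lowest at 30.7 ± 4.12. The TCF-1 cKO pre-transplant libraries had nearly the same order at lower levels, from Lck at 181 ± 65.7 to Fyn at 12.2 ± 2.23 TPM. In WT post-transplant cells Lck was at 1260 ± 671 TPM, and Lck, Cd3g, Cd3d, Zap70, Cd247, Cd3e and Lat formed a run in which every gene overlapped the next, while Lcp2 (26.7 ± 10.1) and Fyn (14.8 ± 8.86) lay far below. In TCF-1 cKO post-transplant cells the order was different. Cd3g led at 1760 ± 361 TPM, Cd3d followed at 723 ± 67.4 without overlap, Lck was at 284 ± 172, and Zap70 (76.4 ± 0.824), Cd3e (53.8 ± 5.42) and Lat (46.9 ± 5.99) were near the bottom, above Lcp2 (23.6 ± 2.51) and Fyn (11.8 ± 5.36).

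**Figure D2:**
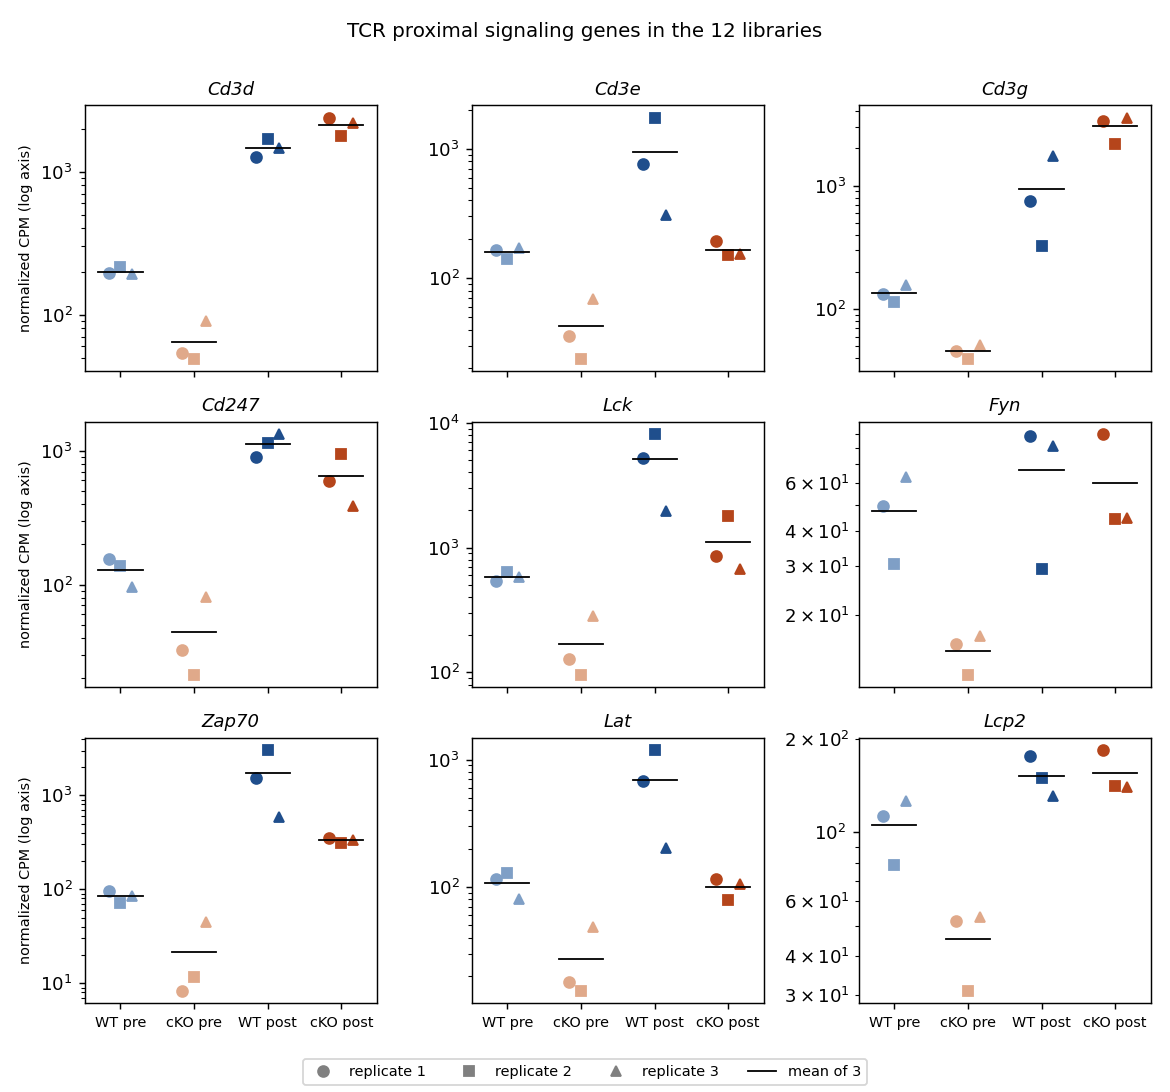
Normalized CPM (log axis, a separate range in each panel) of the 9 genes in the 12 libraries, with replicates 1 to 3 as circle, square and triangle and the mean of 3 as a line. All 9 genes were lower in every TCF-1 cKO pre-transplant library than in any WT pre-transplant library, and post-transplant Cd3e, Lck, Zap70 and Lat were lower, and Cd3d and Cd3g higher, in TCF-1 cKO than in WT libraries.

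Before transplant, the question is whether the TCF-1 cKO and WT libraries differ in these genes before alloantigen is met. These libraries are labelled as CD8 T cells but hold the markers of other cell types given above. Every gene was lower in all 3 TCF-1 cKO libraries than in all 3 WT libraries, but none passed the FDR of 0.1. Cd3e, whose product pairs with CD3 delta and CD3 gamma, was at 164, 141 and 172 normalized CPM in WT and at 35.6, 23.8 and 69.2 in TCF-1 cKO replicates 1 to 3 (log2 fold change -1.72, standard error 0.44). Lck was at 537, 633 and 586 in WT and at 129, 95.5 and 284 in TCF-1 cKO cells (-1.62, standard error 0.45). Zap70 was at 96.0, 71.3 and 85.3 in WT and at 8.26, 11.7 and 45 in TCF-1 cKO cells (-1.82, standard error 0.56). TCF-1 cKO replicate 3 was the highest of its group for all 9 genes, and the groups did not overlap for any of them.

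Lat had the largest difference of the 9 (-1.84, standard error 0.49), from 115, 129 and 80.8 normalized CPM in WT to 17.8, 15.2 and 48.3. Lcp2, whose product SLP-76 is also used by other blood cells, had the smallest (-1.01, standard error 0.42), from 113, 78.7 and 126 to 51.8, 30.9 and 53.6. The log2 fold changes of the other genes were -1.34 for Cd3g, -1.38 for Cd247, -1.45 for Cd3d and -1.46 for Fyn. In edgeR's quasi-likelihood test the adjusted p-values of the 9 genes were 0.2 to 0.256. Only 0.0373% of the 18772 genes tested passed the FDR at all. At an unadjusted p under 0.05 and in the lower direction all 9 were counted, against 6.59% of the genes tested, and lower without overlap all 9, against 14.2%. The median log2 fold change was -1.46 over the 9 genes and 0.05 over all genes tested. A two-sided exact permutation test gave p = 0.1 for each gene, the smallest p that 3 libraries against 3 allow.

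These differences moved with some of the marker levels given above. The pan-T cell and myeloid sums were also lower in every TCF-1 cKO pre-transplant library than in WT. So were the CD4 lineage sums, at 35.0 to 64.6 against 149 to 173. The B cell and plasma cell sums overlapped, with a mean of 8820 in TCF-1 cKO and 16800 in WT cells. The erythroid sums (means of 9170 and 8580, respectively) and the NK cell sums (95.1 and 112) overlapped as well. Within the pan-T list Thy1 went the other way, with means of 61.0 and 54.4, respectively. When the genes were scaled to the summed level of the receptor's constant regions (Trac, Trbc1 and Trbc2), a measure chosen after the marker levels had been seen, the log2 fold changes lay between -0.44 for Zap70 and 0.61 for Lcp2, with standard errors of 0.34 to 0.55 and adjusted p-values of 0.274 to 0.909. Lck, for example, was at 0.732, 0.747 and 0.683 of that sum in WT and at 0.666, 0.614 and 0.715 in TCF-1 cKO cells. Cd3e was at 0.223, 0.167 and 0.2 of it in WT and at 0.184, 0.153 and 0.174 in TCF-1 cKO cells. On that scale 46.5% of the genes tested were called higher. Their median log2 fold change, 1.72, was above the values of all 9 genes, whose median was 0.06. Unscaled and without TCF-1 cKO replicate 3, 8 of the 9 genes passed the FDR, all but Lcp2, with log2 fold changes of -1.49 to -2.91. In that fit 8.9% of all genes were called lower. The Wald test of DESeq2 called 7 of the 9, all but Cd247 and Lcp2, and 2.85% of all genes as lower.

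Post-transplant, the comparison asks how donor CD8 T cells without TCF-1 differ once they have been activated in the recipient. Cd3e, Lck, Zap70 and Lat fell, and none of the 9 genes rose past the FDR, as 2.51% of all genes did. Thus 4 of 9 passed in the lower direction, against 15.4% of the 16039 genes tested. Cd3e was at 770, 1750 and 309 normalized CPM in WT and at 193, 151 and 154 in TCF-1 cKO replicates 1 to 3 (log2 fold change -2.81, standard error 0.66, adjusted p = 0.0447). Lat was at 673, 1190 and 202 in WT and at 115, 79.1 and 106 in TCF-1 cKO cells (-3.10, standard error 0.69, adjusted p = 0.0447). The WT libraries spread far more widely than the TCF-1 cKO libraries, and WT replicate 3 lay closest to the TCF-1 cKO values.

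Zap70 showed the same spread, at 1520, 3040 and 587 normalized CPM in WT and at 351, 312 and 333 in TCF-1 cKO cells (-2.67, standard error 0.63, adjusted p = 0.0447). Lck was at 5240, 8170 and 1950 in WT and at 860, 1780 and 677 in TCF-1 cKO cells (-2.48, standard error 0.67, adjusted p = 0.0532). Cd3e, Lck, Zap70 and Lat were lower without overlap, as 17.3% of the genes tested were. Cd247 did not pass (-1.01, standard error 0.45, adjusted p = 0.184), with 899, 1150 and 1340 in WT and 599, 948 and 387 in TCF-1 cKO cells, of which replicate 2 lay within the WT range.

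Cd3g, in contrast, was higher in every TCF-1 cKO library, at 3320, 2180 and 3550 normalized CPM against 757, 325 and 1720 in WT, but did not pass the FDR (log2 fold change 1.5, standard error 0.54, adjusted p = 0.116). Its WT values ran opposite to those of Zap70, since replicate 2 was lowest for Cd3g and highest for Zap70, and replicate 3 was the reverse. Cd3d was at 1270, 1700 and 1460 in WT and at 2390, 1770 and 2200 in TCF-1 cKO cells (0.26, standard error 0.34, adjusted p = 0.637). On the scale of these levels Cd3d and Cd3g were higher without overlap, as 23.4% of the genes tested were. For Cd3d the gap was narrow, 1770 against 1700. That scale uses factors from all 12 libraries, and so does the exact test. In 1 fit over 12 libraries the median log2 fold change of all genes was 0.472, against 0.15 in the fit used here. Fyn (-0.44, standard error 0.56) and Lcp2 (-0.26, standard error 0.42) overlapped between the genotypes, Fyn at 29.2 to 88.9 in WT and 44.5 to 90.3 in TCF-1 cKO cells, and Lcp2 at 131 to 176 and 140 to 184. A two-sided exact permutation test gave p = 0.1, its smallest p, for the 6 genes without overlap, 0.2 for Cd247, 0.9 for Lcp2 and 1.0 for Fyn. Over the 9 genes the median log2 fold change was -1.01, and over all genes tested 0.15.

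The 4 calls of the unscaled fit depended on single libraries. Without WT replicate 3, the library with the low Tcf7, 5 of 9 passed, with Cd3e at -3.30 (adjusted p = 0.00162), Lck at -2.95, Zap70 at -3.16, Lat at -3.61 and Cd3g at 2.02 (adjusted p = 0.0219). Of all genes, 19.4% were called lower and 9.71% higher in that fit. Without WT replicate 1, without WT replicate 2, or without any 1 of the TCF-1 cKO libraries, 0 of 9 passed, and the adjusted p-values of the 4 genes were then 0.109 to 0.199, with log2 fold changes of -2.04 to -3.28. In those fits at most 2 of all genes passed.

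The post-transplant differences followed GC content. The rank correlation (Spearman's rho) of log2 fold change with GC content was -0.579 across the tested genes and -0.82 over the 9, given as descriptions because genes are not replicates. For each signaling gene the median log2 fold change of all tested genes within 1 percentage point of its GC content was taken. That median was -2.78 for Zap70, -2.45 for Lat, -1.46 for Lck and -0.59 for Cd247, and 0.51 for Cd3g. Zap70 thus differed from genes of like GC content by 0.10 on the log2 scale, Cd247 by -0.42, Lat by -0.65, Cd3g by 0.99 and Lck by -1.02. Among genes of the GC content of Zap70, 59.1% were called lower, and 54.1% were at that of Lat.

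Cd3e departed most. Genes within 1 point of its GC content had a median log2 fold change of 0.04, from which Cd3e differed by -2.85, and 14 of these 1756 genes had a lower log2 fold change. Cd3d, with nearly the same GC content, was 0.21 above its own median of 0.05. Fyn and Lcp2 differed from theirs by -0.58 and -0.60.

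**Figure D3:**
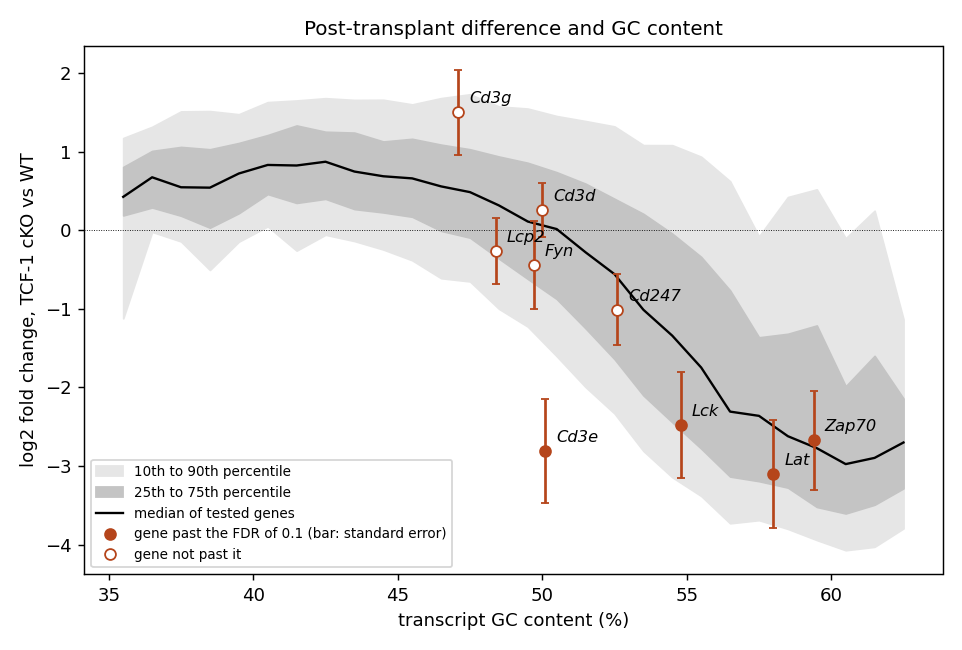
Post-transplant log2 fold change (TCF-1 cKO vs WT) against transcript GC content (%), with the median of tested genes in 1-point bins as a line, percentile bands in grey, and the 9 genes as points with standard errors, filled where past the FDR of 0.1. Zap70 lies on the line and Lat and Lck lie below it within the bands, while Cd3e, at a GC content of 50.1%, lies at -2.81, far below the line.

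The trend was present library by library. Against the mean of the 6 post-transplant libraries, the deviation of a gene rose with GC content in WT replicate 1 (rho 0.482) and replicate 2 (rho 0.546), was nearly flat in WT replicate 3 (rho -0.095), and fell with GC content in TCF-1 cKO replicates 1 to 3 (rho -0.514, -0.343 and -0.498). In WT replicate 2 the tenth of genes with the highest GC content lay 2.19 above the mean of the 6 libraries on the log2 scale and the tenth with the lowest at -0.76. Zap70 lay near the median of genes of its GC content in that library, at 2.16 against 2.32, while Cd3e lay at 2.32 against -0.20. Lck was above its median there, at 1.96 against 1.13. Before transplant the same measure gave rho 0.046, 0.407 and 0.129 in WT and -0.347, -0.403 and 0.348 in TCF-1 cKO replicates 1 to 3, so that TCF-1 cKO replicate 3, the highest for all 9 genes, stood on the WT side.

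**Figure D4:**
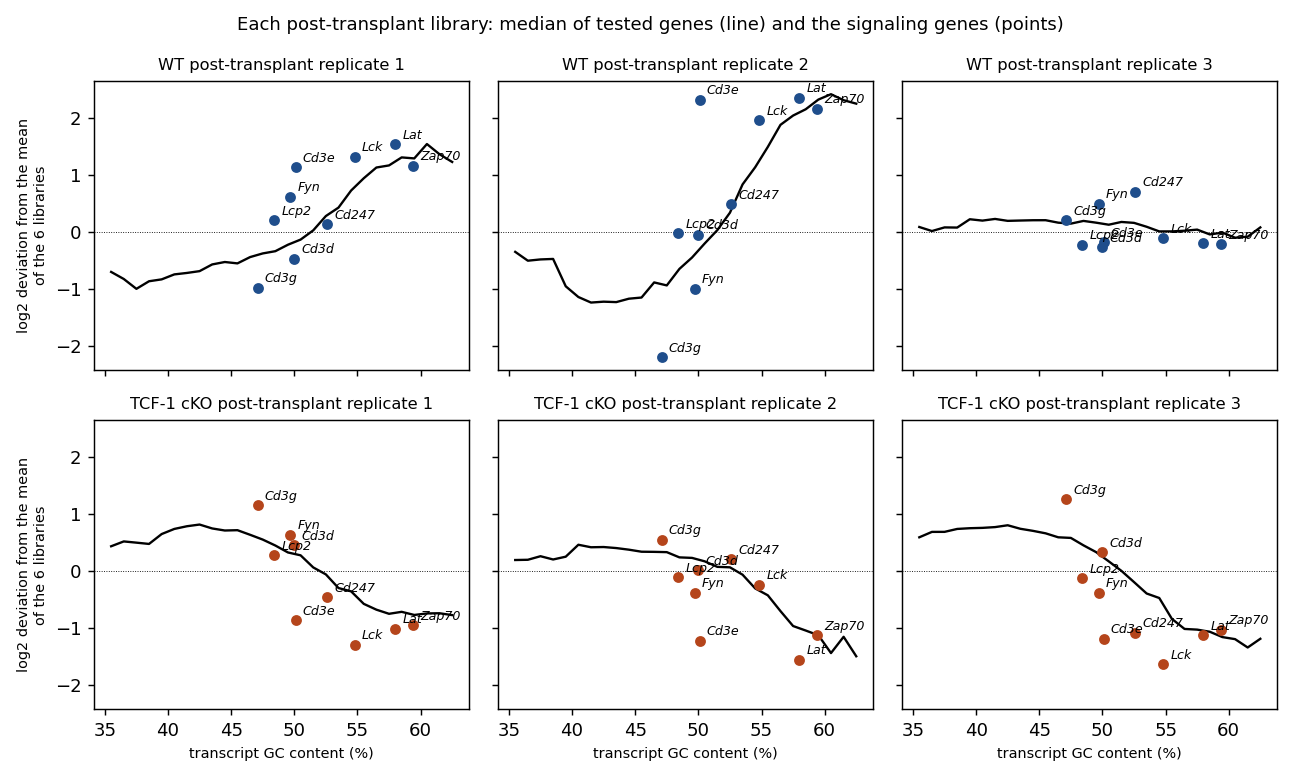
Log2 deviation of each post-transplant library from the mean of the 6 libraries against transcript GC content (%), with the median of tested genes as a line and the 9 signaling genes as points. The line rises in WT replicates 1 and 2, is nearly flat in WT replicate 3 and falls in the 3 TCF-1 cKO libraries, and Cd3e lies off the line in WT replicates 1 and 2 and in all 3 TCF-1 cKO libraries.

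With an offset that removed each library's trend on GC content and length, only Cd3e of the 9 genes passed the FDR (log2 fold change -3.09, standard error 0.68, adjusted p = 0.0897), against 3.14% of all genes called lower in that fit. Zap70 was then at -0.09 (standard error 0.27, adjusted p = 0.885), Lat at -0.97 (standard error 0.34, adjusted p = 0.163) and Lck at -1.06 (standard error 0.42, adjusted p = 0.205). Cd3g was at 0.69 (standard error 0.34, adjusted p = 0.289) and Cd3d at 0.09. The median over the 9 genes was -0.58, and over all genes -0.19. With a replicate block added to the offset Cd3e was at -2.59 (adjusted p = 0.136), and none of the 9 passed. Without WT replicate 3, a fit added after the data were seen, the offset left 4 of 9 past the FDR, against 13.0% of all genes called lower. These were Cd3e (-3.77, adjusted p = 0.00957), Lat (-1.50, adjusted p = 0.0187), Lck (-1.57, adjusted p = 0.0466) and Lcp2 (-1.06, adjusted p = 0.0573), while Zap70 was at -0.47 (adjusted p = 0.249) and Cd3g at 0.88 (adjusted p = 0.121). Before transplant the offset left all 9 genes lower, at -1.51 to -2.13, and none past the FDR (adjusted p-values of 0.124 to 0.126). It moved the median over all genes too, from 0.05 to -0.44, beside -1.46 to -1.87 over the 9 genes. WT replicate 3 was the only WT library without a rising trend, so genotype and the GC trend of a library cannot be fully told apart post-transplant.

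**Figure D5:**
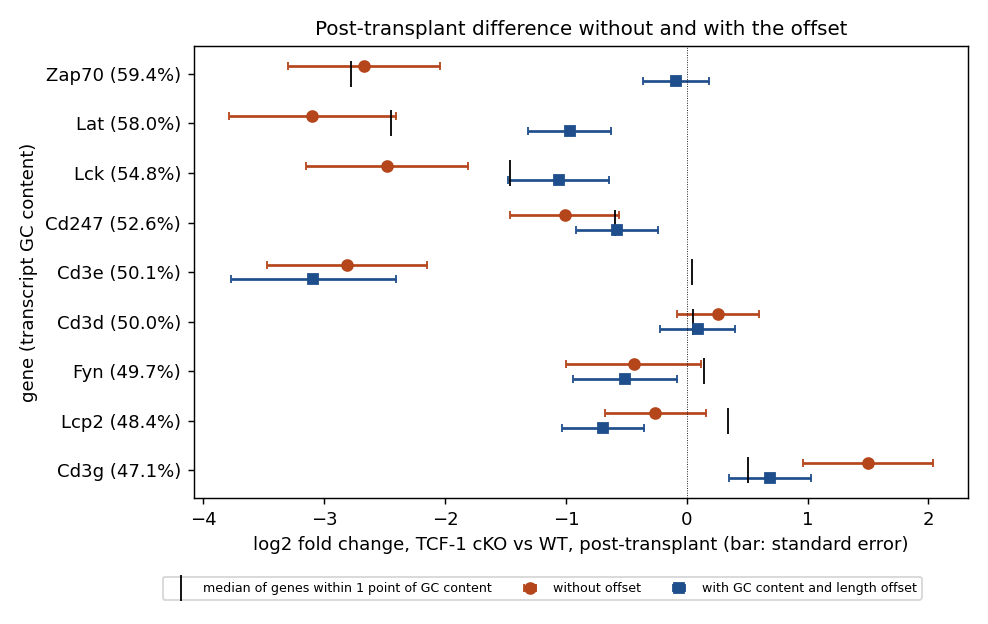
Post-transplant log2 fold changes of the 9 genes, ordered by GC content, without an offset (circles) and with the GC content and length offset (squares), with standard errors and the median of genes within 1 point of GC content (ticks). Zap70 moves from -2.67 to -0.09, while Cd3e stays at -2.81 and -3.09.

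The CD3 cluster shows how far neighbouring genes diverged. The ratio of Cd3g to Cd3e in TPM was 1.06 to 1.42 in WT and 1.12 to 2.52 in TCF-1 cKO cells before transplant. Post-transplant it was 1.56, 0.297 and 9.41 in WT replicates 1 to 3 and 30.9, 26.2 and 41.9 in TCF-1 cKO cells. The ratio of Cd3d to Cd3e, genes of like GC content, was 0.867 to 4.66 in WT and 12.4 to 15.2 in TCF-1 cKO post-transplant cells. In this ratio WT replicate 3 lay between the other WT libraries and the TCF-1 cKO libraries. The promoters of Cd3d and Cd3e (RefSeq, GRCm38.p6, 250 bases before to 50 after the start) are shown with matches to CTTTGA or CTTTGT, letters bound by the TCF/LEF family to which TCF-1 belongs, in capitals on either strand.
Cd3d, chr9:44981536-44981835, plus strand: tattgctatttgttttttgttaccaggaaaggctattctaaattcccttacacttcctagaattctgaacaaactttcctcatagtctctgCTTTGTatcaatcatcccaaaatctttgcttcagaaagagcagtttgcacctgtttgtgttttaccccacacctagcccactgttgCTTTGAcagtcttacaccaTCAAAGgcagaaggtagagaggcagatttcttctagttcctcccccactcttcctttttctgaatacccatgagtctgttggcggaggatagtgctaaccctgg
Cd3e, chr9:45009562-45009861, minus strand: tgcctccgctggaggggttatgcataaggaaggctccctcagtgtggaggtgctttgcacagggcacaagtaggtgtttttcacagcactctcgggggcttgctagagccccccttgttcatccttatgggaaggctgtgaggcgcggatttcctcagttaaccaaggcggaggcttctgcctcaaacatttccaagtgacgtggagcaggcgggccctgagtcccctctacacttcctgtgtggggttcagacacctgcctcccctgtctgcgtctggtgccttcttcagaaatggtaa
Cd3d holds 3 matches and Cd3e and Cd3g hold 0 in this window. At least 1 match was found in a promoter of 6 of the 9 genes, and in 31.2% of all 32851 promoters of the same length. For the other letters searched, TGTGGT (RUNX factors) was in a promoter of 3 of the 9 genes and in 16.8% of all, CAGGAAG (ETS factors) in 6 and in 13.3%, and TATAAA in 0 and in 13.6%. Lck and Zap70 have more than 1 promoter in the table, so for them more bases were searched than for a single promoter.

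Single transcripts of a gene allowed a look within a gene. Cd3e-201, the coding transcript with a GC content of 50.6%, was at 733, 1710 and 265 normalized CPM in WT and 141, 107 and 103 in TCF-1 cKO post-transplant libraries. Cd3e-202, a retained-intron transcript with a GC content of 44.5%, was at 30.4, 34.7 and 44.5 in WT and 52.1, 43.8 and 50.2 in TCF-1 cKO cells, so the lower level was seen in the coding transcript. The share of Cd3e counts from Cd3e-201 was 92.9% ± 6.43 (SD, n = 3) in WT and 70.1% ± 3.20 in TCF-1 cKO post-transplant cells. Averaged over the 12 libraries, a leading transcript held 84.3% (Cd3e) to 99.7% (Cd3d) of the counts in 7 of the 9 genes. On the same average Lcp2-201 held 74.7% of Lcp2 and Fyn-205 held 41.0% of Fyn. The main Lcp2 transcripts, with GC contents of 46.8% and 52.5%, had log2 ratios of TCF-1 cKO to WT means of 0.08 and -0.09. Estimated counts divide reads shared between transcripts of a gene by a model, so values of single transcripts are less certain than those of the gene.

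From pre- to post-transplant, 7 of the 9 genes rose in WT cells, against 9.69% of the 16805 genes tested that rose. Zap70 rose most (log2 fold change 4.11, standard error 0.65, adjusted p = 0.00353), followed by Lck (2.90), Cd247 (2.86), Cd3d (2.62), Cd3g (2.51), Lat (2.43) and Cd3e (2.32). Fyn and Lcp2, which are less restricted to T cells, did not pass, at 0.26 (standard error 0.59) and 0.29 (standard error 0.47). Without WT post-transplant replicate 3 the 7 genes also passed, against 13.4% of all genes, at 1.99 for Cd3g, 2.87 for Cd3d, 2.97 for Cd3e and Cd247, 3.08 for Lat, 3.50 for Lck and 4.74 for Zap70. In TCF-1 cKO cells 9 of 9 rose, against 19.8% of the 18550 genes tested. Cd3g rose by 6.04 (standard error 0.43), Cd3d by 5.04, Zap70 by 3.94 and Cd247 by 3.85, while Lck (2.71), Fyn (2.01), Cd3e (1.95), Lat (1.88) and Lcp2 (1.77) rose less. The median log2 fold change of the 9 genes was 2.51 in WT and 2.71 in TCF-1 cKO cells, and that of all genes was -0.30 and -0.29. Both comparisons moved with the pan-T cell sum, which ran from 348 to 1550 before transplant and from 8910 to 16800 after it. Within that list the means of Cd6 in TCF-1 cKO cells (42.1 and 41.5) and of Cd28 in WT cells (54.0 and 62.7) changed little. Every other mean of the list rose.

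Scaled to the summed constant regions of the receptor, none of the 9 genes rose past the FDR. Trac, Trbc1 and Trbc2 did not rise alike, and Trbc1 and Trbc2 made up most of the sum post-transplant. Mean normalized CPM of Trac went from 150 to 632 in WT and from 41.2 to 423 in TCF-1 cKO cells. Trbc1 went from 256 to 2620 and from 82.1 to 4120, and Trbc2 from 407 to 5470 and from 125 to 5130. Scaling to Trac alone was not tested. In WT cells Cd3d, Cd3e, Cd3g, Cd247, Lck and Lat then differed by -0.77 to 0.15 and Zap70 by 1.38, none past the FDR, while Fyn (-2.88) and Lcp2 (-2.66) fell. On that scale 78.9% of all genes were called lower, and their median log2 fold change, -3.31, was below the values of all 9 genes. In TCF-1 cKO cells Cd3d (-0.29) and Cd3g (0.64) were not past the FDR, and Cd3e (-3.30), Lat (-3.29), Lck (-2.58), Fyn (-3.42), Lcp2 (-3.63), Cd247 (-1.38) and Zap70 (-1.15) fell. There 96.6% of all genes were called lower, with a median of -5.73, again below all 9 genes. Library totals without a composition factor moved the median of all genes to -1.25 in WT and -1.89 in TCF-1 cKO cells, and 5 of the 9 genes passed in each, against 4.27% and 8.96% of all genes called higher. In WT cells, leaving out pre-transplant replicate 2 or 3 left 4 of 9 past the FDR, against 5.11% and 3.68% of all genes called higher.

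An interaction term fitted to all 12 libraries asked whether the genotype difference changed with stage. None of the 9 genes passed, against 0.00464% of the 21544 genes tested, and 2 had an unadjusted p under 0.05. These were Cd3g (3.25, standard error 0.75) and Cd3d (2.16, standard error 0.58), both with an adjusted p of 0.233, which had been lower in TCF-1 cKO cells before transplant and higher after it. The remaining values ran from -0.78 for Lat to 1.53 for Fyn. Without WT post-transplant replicate 3, Cd3g (4.05, adjusted p = 0.0488) and Cd3d (2.17, adjusted p = 0.0644) passed, and both also passed in DESeq2's Wald test, in fits that called 8.72% and 8.03% of all genes. Scaled to the constant regions, Cd3g was at 1.41 (adjusted p = 0.175) and Cd3d at 0.01 (adjusted p = 0.997). On that scale Cd3e (-2.92), Lck (-2.74), Zap70 (-2.53) and Lat (-3.00) passed, against 29.7% of all genes called lower and a median of -2.16. With the offset Cd3g was at 2.86 and Cd3d at 1.87, and Lck, Zap70 and Lat turned from -0.42, -0.41 and -0.78 to 0.41, 1.25 and 0.48.

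The genes around the 9 in the pathway were counted in lists, to be read against the 15.4% of all genes called lower and 2.51% called higher post-transplant. Post-transplant, 9 of 20 negative regulators of proximal signaling fell and 0 rose, among them Cd5 (log2 fold change -3.21), a scaffold that dampens receptor signals, Dgkz (-2.88), which consumes diacylglycerol, and the adaptors Dok1 (-3.62) and Dok2 (-2.96). Of 20 genes of the downstream branches 7 fell, including Orai1 (-3.15) and Stim1 (-2.67), which open calcium entry, and Mapk3 (-3.18), the kinase ERK1. Of 17 kinases, adaptors and effectors next to the 9 genes 3 fell, which were Vav1 (-2.77), Sh2d2a (-3.23) and Pik3cd (-2.80), and Txk (1.42, GC content 47.1%) did not pass. These named genes that fell had GC contents of 54.0% to 61.1%.

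Ptprc, which encodes CD45, the phosphatase that keeps LCK ready, was the 1 gene of the 4 in its list past the FDR (1.38, adjusted p = 0.0994, GC content 41.8%), while Cd8a (-0.40) and Cd8b1 (-0.62) did not pass. Fgr (-2.75) was the 1 of 9 counterparts of the signaling genes in other blood cells that fell. The medians were -1.40 for negative regulators, -0.94 for downstream branches, 0.04 for neighbouring kinases and adaptors, -0.26 for coreceptors and CD45 and -0.22 for the counterparts, beside 0.15 for all genes. The shares of neighbouring kinases and adaptors and of counterparts that fell were near that of all genes. Without WT replicate 3, 12 of 20 negative regulators, 9 of 20 downstream genes and 7 of 17 neighbouring kinases and adaptors passed in either direction. So did 1 of 4 coreceptor genes and 2 of 9 counterparts. In that fit 29.1% of all genes passed, and the shares of coreceptor genes and counterparts were not above it. With the offset, 3 of 20 negative regulators fell, among them Cd5 (-1.43, adjusted p = 0.0897), and 0 genes of the other lists passed. In that fit Dok2 was at -0.71 and Orai1 at -0.48.

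Before transplant no gene of any list passed the FDR, and the medians were -1.18, -0.80, -0.90, -0.74 and -0.30 for coreceptors and CD45, neighbouring kinases and adaptors, negative regulators, downstream branches and counterparts, beside 0.05 for all genes. The genes with the smallest p in each list included Plcg1 (-2.08), Sla2 (-2.22), Cd5 (-2.11) and Cd8a (-1.96). From pre- to post-transplant, the counterparts used by B cells and myeloid cells went the opposite way to the 9 genes, with 7 of 9 falling in WT cells and 8 of 9 in TCF-1 cKO cells, among them Blk (-7.83 and -7.26), the Src kinase of B cells, and Blnk (-6.16 and -4.19), the B cell relative of SLP-76. Cd8a rose by 2.14 and 4.45 and Cd8b1 by 2.47 and 3.53, while Cd4 fell (-4.89 and -2.91). Of 20 negative regulators 5 rose and 1 fell in WT cells, and 10 rose and 4 fell in TCF-1 cKO cells. Of 17 neighbouring kinases and adaptors 2 rose in WT cells, and 7 rose and 2 fell in TCF-1 cKO cells. Of 20 genes of the downstream branches 1 rose and 7 fell in WT cells, and 4 rose and 5 fell in TCF-1 cKO cells. These counts stand beside 9.69% of all genes called higher and 10.3% called lower in WT cells, and 19.8% and 16.8% in TCF-1 cKO cells, and 2 of 17 in WT and 4 of 20 in TCF-1 cKO cells are near those shares. No list gene passed in the interaction test.

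Across the 12 libraries, the levels of the 9 genes were positively correlated in every pair. As a description with no test, Pearson's r of log2 levels was highest for Cd3e with Lat (0.989) and lowest for Cd3g with Lat (0.472). Lck with Zap70 gave 0.968, Cd3e with Lck 0.967, Cd3d with Cd3g 0.945 and Cd3e with Cd3g, its neighbour on chromosome 9, 0.504. The 5 genes most like the mean of the 9 were Trac (r = 0.987), Cd7 (0.987), Fxyd5 (0.985), Galk1 (0.984) and Pop7 (0.982). These correlations are descriptions over 12 libraries that fall into groups and share depth and GC trends.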

How the data were processed

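RNA was extracted from sorted CD8 T cells, amplified with SMART-Seq HT and made into libraries with Nextera XT, which does not mark strand. The authors estimated abundance with kallisto 0.46.2; the submitters' processing notes also list limma and mm9, and the transcript release is not given in the sources used here. The deposited estimated counts are per transcript and not normalized. The deposited TPM values were computed by kallisto from those counts and effective lengths. Of 117497 transcripts, 116428 were joined without version numbers to GENCODE M21 (GRCm38), summed per gene and rounded to whole numbers. Transcripts shared by similar genes are divided by kallisto's model. Library totals were 4520270 to 32657005, and floors of 3 counts cover counting error only.

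Each comparison was fitted on its 6 libraries with edgeR 4.0.16 (TMM, filterByExpr, quasi-likelihood test, Benjamini-Hochberg adjustment over all genes tested, FDR 0.1), and the interaction on 12. Standard errors came from the log2 fold change and F. Exact permutation tests used log2(normalized CPM + 0.5). For the offset, each library's loess trends (span 0.4, degree 2) were removed, that on GC content first and that on log length second. Fits of the post-transplant genotype comparison were tested on simulated counts. These held no GC or length trend, so they cannot show that the offset removes one. The constant-region scaling and the interaction were not simulated. Alternatives were limma-voom (limma 3.58.1), DESeq2 1.42.0 with its Wald test, library totals, no filter, DESeq2 size factors in edgeR, length-scaled TPM, an FDR of 0.05, a replicate block, the offset, both, 1 fit over 12 libraries, leaving out each library, and, added after the data were seen, the receptor's constant regions as denominator and the offset without WT post-transplant replicate 3. Statistics were run in R 4.3.3, and tables were made in Python 3.11.15 with SciPy 1.17.1 and pandas 2.3.3.

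Samples were grouped by their titles. The 9 genes and the lists were chosen with earlier results of these data known. The genes named were the 9, Tcf7, up to 4 genes of each list with the smallest p in a comparison and the 5 genes most correlated with the mean of the 9. List members whose names are not printed are not reported here.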

Additional observations from a re-analysis of the deposited data

How the results depend on the processing

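Between TCF-1 cKO and WT cells before transplant 0 of 9 genes passed the FDR. In DESeq2's Wald test 7 passed, with no filter 3, and 0 to 8 when a library was left out. Those fits called 7.76%, 1.93% and 0% to 12.7% of all genes, in that order. Post-transplant the 4 genes became 1 with the offset, 0 with the offset and replicate block, and 0 to 5 without 1 library. There 4.0%, 0.0125% and 0% to 29.1% of all genes were called. In WT cells 7 genes rose between stages. Scaled to the constant regions none of them passed and 2 others, Fyn and Lcp2, fell. Without 1 library 4 to 7 passed, in fits that called 8.38% to 22.2% of all genes. In TCF-1 cKO cells the 9 became 5 with library totals. In the interaction 0 became 2 in DESeq2, 1 with no filter, 4 scaled to the constant regions and 0 to 2 without 1 library. The cause was not tested. All other settings kept the count within 1.5 times.

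Directions turned as follows. Scaled to the constant regions, the pre-transplant log2 fold changes were 0.14 for Cd3d, 0.31 for Cd3g, 0.06 for Cd247, 0.18 for Fyn and 0.61 for Lcp2. So scaled, the differences between stages in WT cells were -0.30 for Cd3d, -0.37 for Cd3e, -0.77 for Cd3g, -0.15 for Cd247, -2.88 for Fyn, -0.29 for Lat and -2.66 for Lcp2. In TCF-1 cKO cells they were -0.29 for Cd3d, -3.30 for Cd3e, -1.38 for Cd247, -2.58 for Lck, -3.42 for Fyn, -1.15 for Zap70, -3.29 for Lat and -3.63 for Lcp2, and in the interaction -1.23 for Cd247, -0.54 for Fyn and -0.97 for Lcp2. With library totals Fyn and Lcp2 were at -0.61 and -0.67 between stages in WT cells, and Lcp2 at 0.20 post-transplant, where 1 fit over 12 libraries gave 0.03. Post-transplant Cd3d was at -0.27 with the offset and without WT replicate 3. The interaction of Lck, Zap70 and Lat was 0.41, 1.25 and 0.48 with the offset and 0.39, 1.25 and 0.45 with the offset and replicate block, and that of Zap70 was 0.23 in limma-voom. When a library was left out, the interaction ranged from -1.14 to 0.20 for Cd3e, -0.93 to 0.09 for Lck and -1.06 to 0.59 for Zap70; it was above 0 without WT post-transplant replicate 2 for all 3 and without TCF-1 cKO pre-transplant replicate 3 for Lck (0.08) and Zap70 (0.59).

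The sample titles give same-numbered libraries only a shared number. Their deviations from the group means correlated by -0.084 to 0.059, which cannot settle whether they were paired. Each of the 6 post-transplant libraries correlated best with its own number, a hint from the data, and 4, 2 and 0 of 6 did in the pre-transplant, WT and TCF-1 cKO comparisons. With the replicate block 5 of 9 genes passed post-transplant, Cd3g being added at 1.72 (adjusted p = 0.0828), and the genes called in all went from 2871 to 2036. The block changed no other call of the 9 genes. Genes called in all ranged over the alternatives from 0 to 8758 before transplant, 0 to 5301 post-transplant, 1581 to 13368 and 5161 to 17961 between stages in WT and TCF-1 cKO cells, and 0 to 6460 in the interaction, beside 7, 2871, 3366, 6778 and 1; the highest came with the constant regions, except post-transplant, where it came without WT replicate 3. Of 819 recomputed log2 fold changes 699 kept direction and side of the FDR. Depth was lowest in the TCF-1 cKO pre-transplant libraries, where Zap70 had 94 counts in replicate 1.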
